A study of Mus musculus with 10 samples.

Results

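Mouse embryonic fibroblasts (MEFs) that had been given serum for 30 min were compared with the same cells at 0 min of serum. The comparison took 4 of the 10 arrays of the series, which were all those of the labelled MEFs at these times. They were the Med23KO (KO) and wild type (WT) cells at 30 min, set against the Med23KO and wild type cells at 0 min and paired by genotype. The MEFs came from 9.5-day embryos and had immortalised on their own in culture, the labels name no further line of either genotype, and the labels list no agent other than serum. The KO cells lack Med23, a subunit of the Mediator complex that joins transcription factors to RNA polymerase II, and the series examined genes that depend on the transcription factor SRF (serum response factor). The labels give the growth medium with 10% serum, and do not say whether, or how long, the cells were kept without serum before 0 min.

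Serum holds growth factors and lipids that cells in a starved culture lack. When it is added, MAP kinase signalling and other pathways act on transcription factors that already sit in the cell, among them SRF with its ternary complex partners and with MAL (the product of Mrtfa), and CREB. A first class of genes, the immediate-early genes, is transcribed within minutes without new protein. Many of them encode transcription factors, such as Fos and Egr1, and others encode proteins that end the signal, such as phosphatases and mRNA decay factors.

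Each of the 4 conditions had 1 array, so no condition had a replicate, and the 2 genotypes were the only repeat of the serum step. The values were log2 expression values, and the medians of the 6 MEF arrays lay between 3.86 and 3.93. Levels below the median of their array cannot be told from background here. The coefficient given for a gene is the log2 difference, 30 min minus 0 min, from 1 limma model of all 6 MEF arrays (0, 30 and 90 min) with genotype as a term, and a gene was called at an adjusted p under 0.05. The p-values rest on the spread between these arrays, which may be technical and does not cover further cultures or lines. Each SE given with a coefficient comes from the same fit of all 6 arrays and is not the spread of the 2 pairs. In such bulk RNA a change in the number of responding cells and a change in RNA per cell cannot be told apart. Of 12 fibroblast marker genes, 11 were tested and 0 passed, and their median level was 12.07 (KO) and 11.9 (WT) at 30 min against 12.21 (KO) and 11.9 (WT) at 0 min. Of the 12 fibroblast markers, 1 stayed under the array median throughout the 6 arrays. The same was so for 5 of 6 epithelial, 4 of 6 endothelial, 4 of 7 macrophage and 4 of 7 skeletal muscle markers. It was so for only 1 of 6 neural markers. Med23 itself read 3.30 (KO) and 7.39 (WT) at 30 min against 3.30 (KO) and 7.14 (WT) at 0 min, so it was low on both KO arrays. Control probe sets read higher at 30 min than at 0 min. Over 24 probe sets for poly-A spike-ins, bacterial RNAs added to the samples, the median difference was 0.49 in KO cells and 0.29 in WT cells. Over 18 hybridisation controls it was 0.13 in KO cells and 0.21 in WT cells. The part of these controls in the results was not tested.

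At 30 min the response was small in number and nearly all upward. Of 11965 genes tested, 21 rose (0.176%) and 1 fell (0.00836%) by limma with Benjamini-Hochberg adjustment. The coefficients of the 21 lay between 1.86 and 6.99, with a median of 4.24, and the median of all genes tested was 0.02. All 21 had both 30 min levels above both 0 min levels, which was so for 9.88% of all genes tested. They were, in order of size, Nr4a1, Fosb, Fos, Egr2, Dusp5, Atf3, Btg2, Zfp36, Ier2, Junb, Gadd45g, Errfi1, Ccn1, F3, Srf, Homer1, Noct, Slc25a25, Ccnl1, Per1 and Nr4a2. The 1 gene that fell was Tmem186. The number of arrays limits these calls: without either 30 min array (KO or WT) limma called 0 genes, with 351 to 547 at an unadjusted p under 0.05.

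A looser count without a test gave the same lean upward. At least 2-fold higher at 30 min were 219 genes in KO cells (1.83%) and 195 in WT cells (1.63%), and at least 2-fold lower were 25 (0.209%) and 33 (0.276%). In both genotypes at once, 111 genes were at least 2-fold higher (0.928%) and 7 were at least 2-fold lower (0.0585%). The 22 called genes were all among these, so 90 genes passed 2-fold upward in both genotypes and missed the test. The serum differences of the 2 genotypes lay 0.20 apart for the median gene tested. Among the called genes they lay 0.39 apart at the median and up to 1.65 apart. This gap is part of the residual of the fit, so the call itself favours genes with close genotypes. No conclusion is drawn from close genotypes in called genes, here or gene by gene below.

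**Figure D1:**
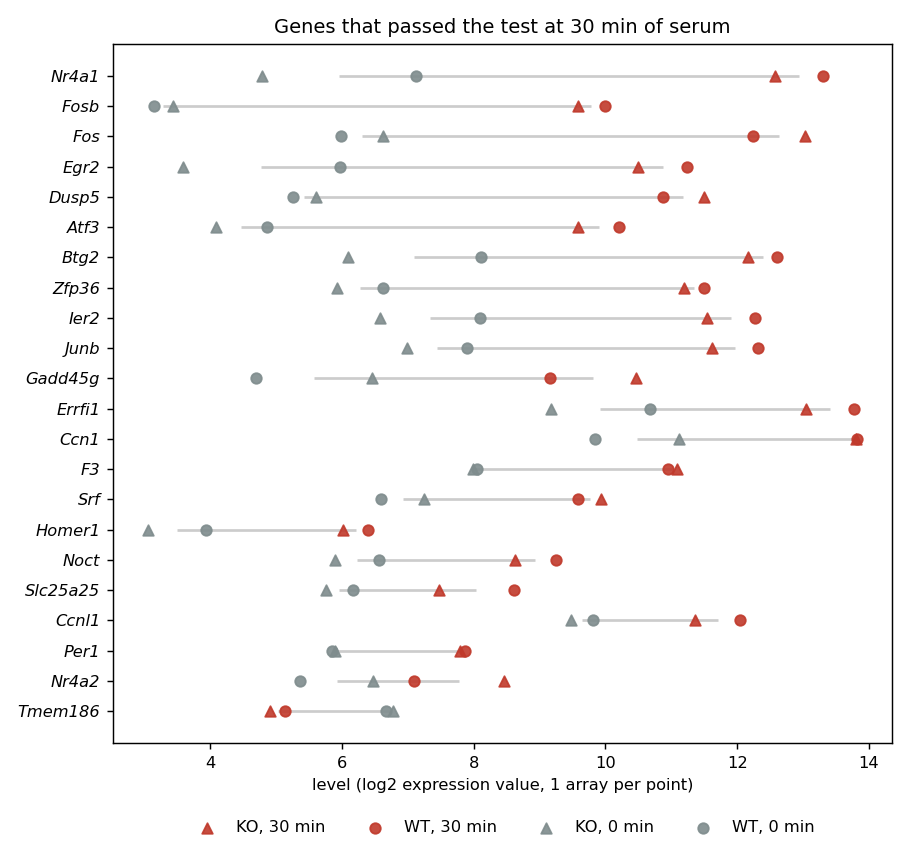
Levels (log2 expression value, horizontal axis) of the 22 genes that passed the test, 1 array per point, with 30 min in red and 0 min in grey, KO as triangles and WT as circles. Grey lines join the means of the 2 times. The 30 min points lie to the right of both 0 min points for 21 genes and to the left for Tmem186.

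The promoters of the called genes are shown here because they were not used to choose the genes. RefSeq promoters (250 bases before to 50 after a start, build GRCm38.p6) were given for 20 of the 21 genes that rose and for 9648 of the genes tested. The CArG box, the site of SRF, was found in 4 of the 20 (20%), which were Srf, Zfp36, Dusp5 and Egr2, against 1.64% of all genes tested. The core of the cAMP response element, TGACGT, which CREB and ATF proteins bind, was found in 11 (55%), against 13.2%. The TATA box core, TATAAA, was found in 8 (40%), against 8.81%. The ETS core, CCGGAA, was found in 7 (35%), against 31.1%. Both strands were searched, a TATA core can lie within a CArG box, and 5 of the 20 genes had more than 1 start and so more sequence. A match is a description of the letters and not a mapped site, and the absence of a CArG box from the Fos window says only that these letters are not in it.

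The 4 promoters with a CArG box are printed with the box in capitals, each as the 250 bases before the start on the strand of the gene. Srf (chr17:46556163-46556412, minus strand) held 2 boxes, at -82 to -73 and at -62 to -53 from its start, so the gene of the factor carries the motif of that factor. Dusp5 (chr19:53528895-53529144, plus strand) held 2 that adjoin, at -82 to -73 and -72 to -63. Zfp36 (chr7:28379229-28379478, minus strand) held 1 at -58 to -49, and Egr2 (chr10:67537316-67537565, plus strand, 1 of 5 starts in RefSeq) held 1 at -72 to -63. None of the boxes lay farther than -82 from the start.
Srf: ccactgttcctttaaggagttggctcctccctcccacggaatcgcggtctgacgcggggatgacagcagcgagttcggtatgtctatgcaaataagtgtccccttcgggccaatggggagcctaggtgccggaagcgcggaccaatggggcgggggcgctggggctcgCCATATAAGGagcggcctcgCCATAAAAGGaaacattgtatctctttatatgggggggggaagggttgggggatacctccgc
Zfp36: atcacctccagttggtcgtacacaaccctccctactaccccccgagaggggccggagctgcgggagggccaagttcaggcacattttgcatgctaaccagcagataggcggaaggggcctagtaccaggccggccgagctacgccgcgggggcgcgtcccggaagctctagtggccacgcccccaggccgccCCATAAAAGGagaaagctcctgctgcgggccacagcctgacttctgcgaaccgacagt
Dusp5: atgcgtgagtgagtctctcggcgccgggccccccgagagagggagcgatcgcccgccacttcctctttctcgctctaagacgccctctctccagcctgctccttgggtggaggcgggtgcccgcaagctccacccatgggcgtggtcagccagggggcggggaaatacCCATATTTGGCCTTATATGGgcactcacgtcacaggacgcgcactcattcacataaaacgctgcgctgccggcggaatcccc
Egr2: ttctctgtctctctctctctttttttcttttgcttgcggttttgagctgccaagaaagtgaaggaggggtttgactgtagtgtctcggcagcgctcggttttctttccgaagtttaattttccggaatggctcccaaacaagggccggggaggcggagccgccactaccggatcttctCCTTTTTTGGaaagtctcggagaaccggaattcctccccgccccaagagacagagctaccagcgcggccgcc

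Another 3 promoters are printed for the cAMP response element core, in capitals. In Fos (chr12:85473640-85473889, plus strand) it lay at -66 to -61. In Atf3 (chr1:191183334-191183583, minus strand) it lay on the opposite strand at -8 to -3. In Btg2 (chr1:134079156-134079405, minus strand) matches on both strands overlapped, from -166 to -159, and made a full palindrome.
Fos: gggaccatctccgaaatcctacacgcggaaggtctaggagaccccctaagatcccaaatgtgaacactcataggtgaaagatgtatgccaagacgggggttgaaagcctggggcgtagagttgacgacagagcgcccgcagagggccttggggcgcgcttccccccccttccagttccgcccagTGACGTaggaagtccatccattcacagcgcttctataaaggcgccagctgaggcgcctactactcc
Atf3: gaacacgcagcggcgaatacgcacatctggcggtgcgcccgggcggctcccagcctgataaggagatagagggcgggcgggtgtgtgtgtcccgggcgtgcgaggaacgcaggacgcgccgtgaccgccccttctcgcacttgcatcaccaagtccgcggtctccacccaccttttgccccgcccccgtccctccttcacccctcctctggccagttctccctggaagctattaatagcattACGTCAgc
Btg2: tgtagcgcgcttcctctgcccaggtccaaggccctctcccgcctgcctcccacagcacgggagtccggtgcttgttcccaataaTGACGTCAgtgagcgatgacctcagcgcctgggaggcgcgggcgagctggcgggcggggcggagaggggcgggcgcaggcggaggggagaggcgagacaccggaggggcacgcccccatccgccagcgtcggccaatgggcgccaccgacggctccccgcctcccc

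**Figure D2:**
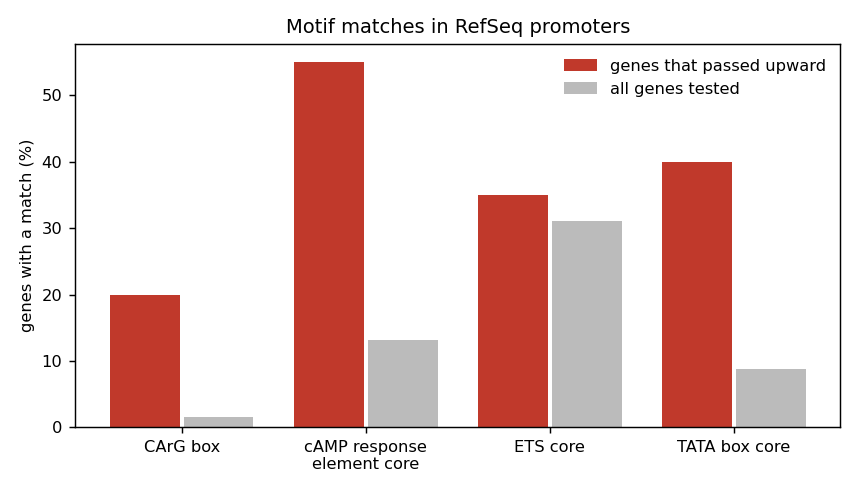
Share of genes (%, vertical axis from 0) whose RefSeq promoter held each of 4 motifs, for the 20 genes that rose (red) and for all 9648 genes tested that had a promoter (grey). The CArG box, the cAMP response element core and the TATA box core were more frequent in the red bars, and the ETS core stood at 35% against 31.1%.

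The AP-1 transcription factor is a pair of Fos and Jun family proteins, and its list here also held Atf and small Maf genes. It gave the highest count of called genes of the lists. The lists differ in size, and the Nr4a list had a higher share, with 2 of 3 called. Of 13 AP-1 genes tested, 4 rose and 0 fell, with a median coefficient of 3.13, and 8 were at least 2-fold higher in both genotypes. Fos read 13.03 (KO) and 12.24 (WT) at 30 min against 6.63 (KO) and 5.99 (WT) at 0 min, a rise of 6.33 (SE 0.31, n = 2 pairs, 80.2-fold, limma adjusted p = 0.00302). Fosb, its close relative, read 9.58 (KO) and 9.99 (WT) at 30 min against 3.43 (KO) and 3.15 (WT) at 0 min, at least 58.3-fold (coefficient 6.50, SE 0.40, limma adjusted p = 0.00402). Its 0 min levels lay below the array medians in both genotypes, and both 30 min levels were far above them. Atf3, a partner of Jun proteins induced by stress and growth signals, read 9.59 (KO) and 10.21 (WT) at 30 min against 4.08 (KO) and 4.86 (WT) at 0 min, a rise of 5.43 (SE 0.15, 43.1-fold, limma adjusted p = 0.000295). Junb, a Jun family member that can restrain Jun, read 11.62 (KO) and 12.32 (WT) at 30 min against 6.98 (KO) and 7.90 (WT) at 0 min, a rise of 4.53 (SE 0.15, 23.1-fold, limma adjusted p = 0.000511). For Atf3 and Junb the 2 genotypes gave nearly one serum difference, 5.51 (KO) and 5.35 (WT) for Atf3 and 4.64 (KO) and 4.42 (WT) for Junb.

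Other AP-1 genes were far higher at 30 min but missed the test. Jun read 11.02 (KO) and 11.39 (WT) at 30 min against 4.62 (KO) and 7.69 (WT) at 0 min, a coefficient of 5.05 (SE 0.80, limma adjusted p = 0.125). The genotypes were close at 30 min and far apart at 0 min. Fosl1, the Fos relative of later serum phases, read 8.03 (KO) and 8.89 (WT) at 30 min against 3.62 (KO) and 5.33 (WT) at 0 min, with limma adjusted p = 0.0937, and went on to 10.75 (KO) and 9.90 (WT) at 90 min. The small Maf gene Maff read 9.04 (KO) and 9.08 (WT) at 30 min against 4.87 (KO) and 6.99 (WT) at 0 min (coefficient 3.13, limma adjusted p = 0.155). Smaller coefficients were those of Fosl2 (1.91, limma adjusted p = 0.0543), Mafk (1.19) and Jund (1.11).

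The Egr genes encode zinc finger transcription factors and the Nab genes their corepressors. Of 6 tested, 1 rose and 0 fell, with a median of 3.63, and 4 were at least 2-fold higher in both genotypes. Egr2 read 10.50 (KO) and 11.24 (WT) at 30 min against 3.58 (KO) and 5.97 (WT) at 0 min, a rise of at least 61.0-fold (coefficient 6.10, SE 0.48, limma adjusted p = 0.0129). Egr1 read 12.55 (KO) and 13.45 (WT) at 30 min against 6.43 (KO) and 9.81 (WT) at 0 min, a coefficient of 4.88 (SE 0.61, 29.5-fold) that missed the test at limma adjusted p = 0.073. Egr3 read 11.13 (KO) and 11.90 (WT) at 30 min against 3.15 (KO) and 8.46 (WT) at 0 min (coefficient 5.71, SE 1.09, limma adjusted p = 0.193). All 3 were high on both 30 min arrays, and their 0 min levels set the genotypes apart. Egr4 was high on the KO array only, with 8.88 (KO) and 4.72 (WT) at 30 min against 4.24 (KO) and 4.61 (WT) at 0 min. The corepressor genes had coefficients of 1.28 (Nab2) and 0.35 (Nab1).

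The 3 Nr4a genes encode orphan nuclear receptors that act without a known hormone. Of the 3, 2 rose, and all 3 were at least 2-fold higher in both genotypes. Nr4a1 had the largest coefficient of all genes tested. It read 12.58 (KO) and 13.31 (WT) at 30 min against 4.79 (KO) and 7.12 (WT) at 0 min, a rise of 6.99 (SE 0.40, n = 2 pairs, 127-fold, limma adjusted p = 0.00402). Nr4a2 read 8.46 (KO) and 7.09 (WT) at 30 min against 6.47 (KO) and 5.37 (WT) at 0 min, a rise of 1.86 (SE 0.18, limma adjusted p = 0.0296). It has 6 probe sets, whose mean differences ran from -0.17 to 2.21, and the sign turned in 1 of them. Nr4a3 read 7.61 (KO) and 6.27 (WT) at 30 min against 3.65 (KO) and 3.86 (WT) at 0 min, at least 8.11-fold, and missed the test (limma adjusted p = 0.12). Both 0 min levels lay below the array medians, and its other 2 probe sets had mean differences of -0.04 and -0.35.

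Among 21 Ier, Klf and other early transcription genes, 1 rose and 0 fell, the median was 1.48, and 11 were at least 2-fold higher in both genotypes. Ier2, an immediate-early nuclear protein gene, read 11.54 (KO) and 12.27 (WT) at 30 min against 6.58 (KO) and 8.09 (WT) at 0 min, a rise of 4.57 (SE 0.28, 23.8-fold, limma adjusted p = 0.00402). Ier3 and Ier5 had coefficients of 2.49 and 2.06 (limma adjusted p = 0.0866 for each). The 10 Krüppel-like factor genes of this list had coefficients from -0.26 to 2.42, none of which passed, with the highest for Klf10 (2.42), Klf4 (1.53) and Klf6 (1.5). Myc, a driver of growth and the cell cycle, read 8.64 (KO) and 9.20 (WT) at 30 min against 7.90 (KO) and 6.70 (WT) at 0 min (coefficient 1.62, limma adjusted p = 0.366). Csrnp1 and Hes1 had larger differences in WT cells, with 2.00 (KO) and 4.41 (WT) for Csrnp1 and 1.56 (KO) and 2.95 (WT) for Hes1, a contrast of single arrays that was not tested.

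**Figure D3:**
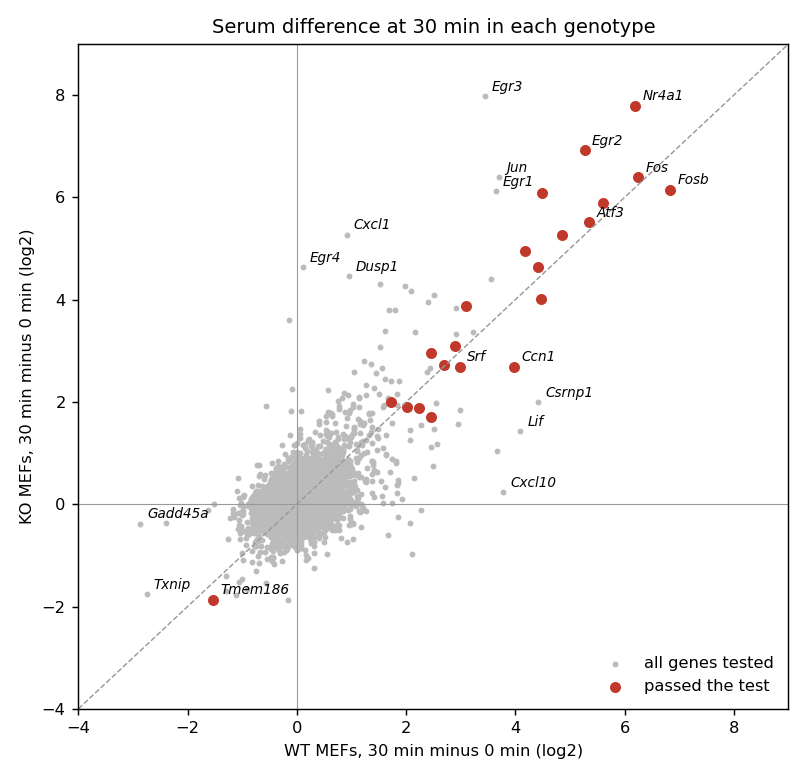
Difference between 30 min and 0 min (log2) in WT cells (horizontal axis) and KO cells (vertical axis), 1 point per gene tested, with the 22 genes that passed in red and equal differences on the dashed line. The red points lie up to 1.65 from equal differences (Egr2), with a median of 0.39, while Egr3, Jun, Cxcl1, Dusp1 and Egr4 lie above it and Lif, Csrnp1 and Cxcl10 below it.

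Genes that damp the signal, Dusp5 and Errfi1, were present in the same response. Of 19 genes on the list of MAP kinase and receptor feedback, which also held Gadd45 stress genes, 3 rose and 0 fell. The median was 0.62. Dusp5, a nuclear phosphatase of the kinase ERK, read 11.50 (KO) and 10.87 (WT) at 30 min against 5.60 (KO) and 5.26 (WT) at 0 min, a rise of 5.76 (SE 0.36, 54.0-fold, limma adjusted p = 0.00402). Errfi1, an inhibitor of the EGF receptor, read 13.05 (KO) and 13.77 (WT) at 30 min against 9.18 (KO) and 10.67 (WT) at 0 min, a rise of 3.49 (SE 0.22, 11.2-fold, limma adjusted p = 0.00402). Gadd45g, a stress gene of the Gadd45 family, read 10.47 (KO) and 9.16 (WT) at 30 min against 6.46 (KO) and 4.69 (WT) at 0 min, a rise of 4.24 (SE 0.24, 18.9-fold, limma adjusted p = 0.00402). Both genotypes took part in each of the 3. Dusp1, another MAP kinase phosphatase, read 12.74 (KO) and 12.82 (WT) at 30 min against 8.28 (KO) and 11.87 (WT) at 0 min. It missed the test (limma adjusted p = 0.445), and its WT level was high at 0 min too. Dusp2 had a coefficient of 2.76 (limma adjusted p = 0.0937), Spry2 1.11 and Dusp6 0.77. The Gadd45 relatives did not move alike, with 0.96 for Gadd45b and -1.63 for Gadd45a, neither of which passed.

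Of 8 mRNA decay and antiproliferative genes, 2 rose and 0 fell, with a median of 0.69. Zfp36, the founding AU-rich element binding protein that speeds decay of cytokine and Fos mRNAs, read 11.20 (KO) and 11.49 (WT) at 30 min against 5.93 (KO) and 6.63 (WT) at 0 min, a rise of 5.07 (SE 0.32, 33.5-fold, limma adjusted p = 0.00402). Btg2, an antiproliferative partner of the deadenylase complex, read 12.17 (KO) and 12.60 (WT) at 30 min against 6.09 (KO) and 8.11 (WT) at 0 min, a rise of 5.29 (SE 0.57, 39.0-fold, limma adjusted p = 0.0469). The other members lay lower, with Zc3h12a at 1.11 and Zfp36l2 at 0.94, neither of which passed.

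The SRF list held 6 tested genes, of which 1 rose and 0 fell, with a median of 0.15. It was Srf itself, which read 9.94 (KO) and 9.58 (WT) at 30 min against 7.25 (KO) and 6.59 (WT) at 0 min, a rise of 2.84 (SE 0.17, 7.16-fold, limma adjusted p = 0.00402). A second probe set of Srf gave 1.85 (KO) and 2.69 (WT). The 5 cofactor genes tested had coefficients from -0.03 to 0.39, with 0.16 for Elk1 and 0.08 for Mrtfa, and the sign of Mrtfa turned to -0.02 after quantile normalization. Of 28 actin-MAL-SRF target genes, which encode actin and the proteins bound to it, 0 rose and 0 fell by limma (963 of all genes tested had an unadjusted p under 0.05, 667 of them higher). Their median was 0.46, and 22 of the 28 were higher in both genotypes, against 3853 of all 11965 genes. The highest coefficients were 1.62 (Filip1l), 1.10 (Itga5, an integrin) and 1.09 (Pdlim7, a LIM protein of actin fibres, limma adjusted p = 0.0937). Tagln read 11.62 (KO) and 6.19 (WT) at 30 min against 11.03 (KO) and 4.82 (WT) at 0 min, and Acta2 read 14.13 (KO) and 13.34 (WT) against 13.89 (KO) and 12.91 (WT). On these probe sets the genotypes lay farther apart than the serum times. The coefficient of Acta2 was 0.34 here and 2.35 (SE 0.34) with the mean of all its probe sets. Vcl, the focal adhesion protein vinculin, was at 0.16 at 30 min and at 2.00 at 90 min (limma adjusted p = 0.00615 at 90 min, where 4.58% of all genes tested rose and 8.83% fell).

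Of 12 YAP-responsive and CCN genes, 2 rose and 0 fell, with a median of 0.45, and 4 were at least 2-fold higher in both genotypes. Ccn1, a secreted matricellular protein gene of both SRF and YAP, read 13.81 (KO) and 13.82 (WT) at 30 min against 11.12 (KO) and 9.84 (WT) at 0 min, a rise of 3.34 (SE 0.30, 10.1-fold, limma adjusted p = 0.0267). F3, the cell surface starter of blood clotting, read 11.08 (KO) and 10.95 (WT) at 30 min against 7.99 (KO) and 8.05 (WT) at 0 min, a rise of 7.97-fold (SE 0.33 on the log2 scale, limma adjusted p = 0.048). The 2 genotypes nearly coincided for F3 at each of these times. Ankrd1 and Ccn2 had coefficients of 2.14 and 1.54 and missed the test.

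Several secreted signals were higher at 30 min without passing the test. Of 19 chemokine, cytokine and Socs genes, 0 rose and 0 fell by limma, and the median was 0.91. In both genotypes 12 of the 19 were higher and 0 were lower, and 5 were at least 2-fold higher. Cxcl12 had a coefficient of -0.05. Il6 came nearest to the threshold, with 5.82 (KO) and 5.98 (WT) at 30 min against 3.15 (KO) and 3.54 (WT) at 0 min (coefficient 2.56, SE 0.29, limma adjusted p = 0.054), and its 0 min levels lay below the array medians. The chemokine gene Cxcl1 read 11.67 (KO) and 13.51 (WT) at 30 min against 6.4 (KO) and 12.60 (WT) at 0 min, and Ccl2 read 10.89 (KO) and 12.91 (WT) against 6.59 (KO) and 11.38 (WT). In both cases the WT level was high at 0 min and the WT difference was the smaller one. Lif, a cytokine of the Il6 family, had its larger difference in WT cells, with 5.44 (KO) and 10.08 (WT) at 30 min against 4.01 (KO) and 5.99 (WT) at 0 min. Cxcl10 was high on 1 of the 4 arrays, with 3.85 (KO) and 8.34 (WT) at 30 min against 3.61 (KO) and 4.57 (WT) at 0 min. Ptgs2, the inducible prostaglandin synthase, had a coefficient of 3.13 (limma adjusted p = 0.122), and Hbegf 3.30 (limma adjusted p = 0.318). Hbegf belongs to the EGF family ligands, growth factors of the EGF receptor, of which 3 were tested, 0 rose and 0 fell by limma, with a median of 0.37.

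Several inhibitors of NF-kB, which serum factors also reach, were higher without passing. Of 13 NF-kB subunit and feedback genes, 0 rose and 0 fell by limma, with a median of 0.69, and 5 were at least 2-fold higher in both genotypes. Nfkbia, the main inhibitor, read 12.13 (KO) and 12.39 (WT) at 30 min against 9.69 (KO) and 10.78 (WT) at 0 min, a coefficient of 2.03 (SE 0.22) just short of the threshold at limma adjusted p = 0.0507. Nfkbiz read 10.41 on both 30 min arrays against 7.84 (KO) and 8.96 (WT) at 0 min (limma adjusted p = 0.0937), and Tnfaip3, a ubiquitin-editing inhibitor, had a coefficient of 3.31 (limma adjusted p = 0.15). The subunit genes Rel and Relb had coefficients of 1.58 and 1.27.

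**Figure D4:**
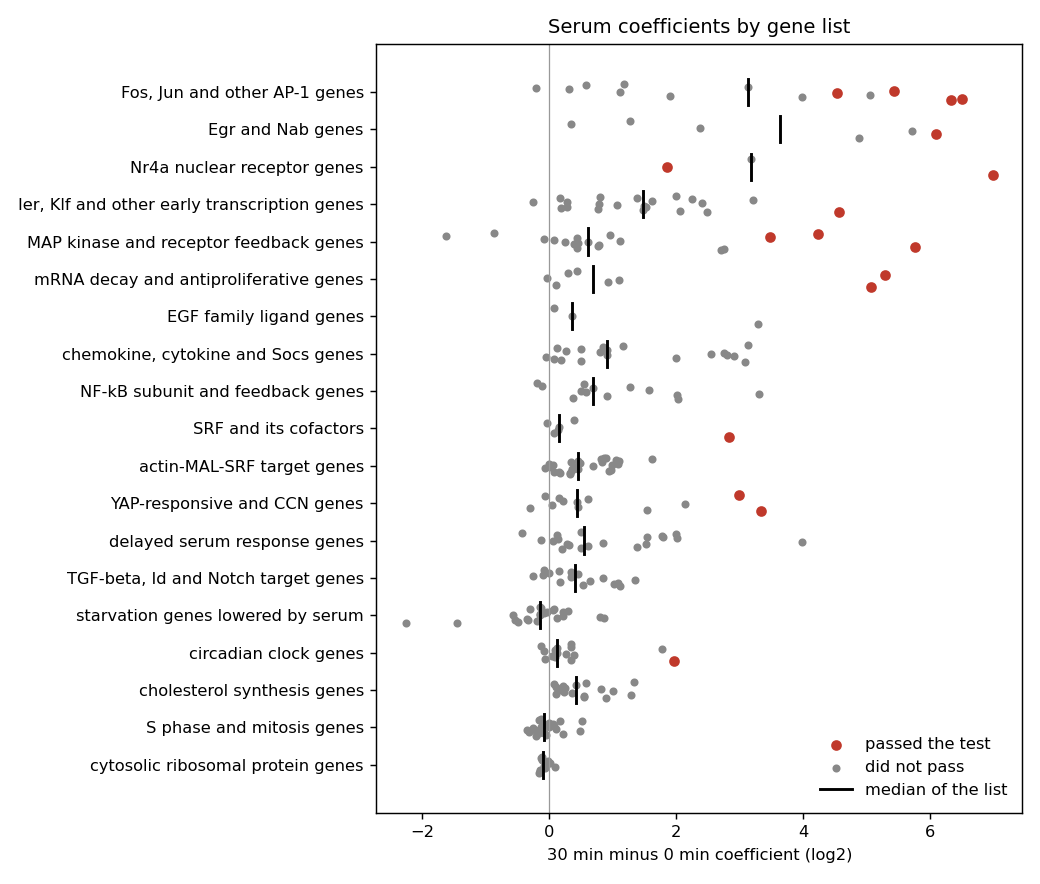
Coefficients of 30 min minus 0 min (log2, horizontal axis) of the tested genes of 19 lists, with genes that passed in red, others in grey and the list median as a black bar. The AP-1, Egr and Nr4a lists have medians above 3, while the S phase and ribosomal protein lists sit close to 0.

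Lists of other pathways gave no call. Of 20 delayed serum response genes, 0 rose and 0 fell by limma, with a median of 0.56, and 6 were at least 2-fold higher in both genotypes. Plaur, the receptor of the plasminogen activator, read 6.49 (KO) and 6.77 (WT) at 30 min against 4.94 (KO) and 5.55 (WT) at 0 min (limma adjusted p = 0.0661) and reached 8.78 (KO) and 8.99 (WT) at 90 min. Of 17 cholesterol synthesis genes, 0 rose and 0 fell by limma, 13 were higher in both genotypes, and the median was 0.43. Hsd17b7, an enzyme of that pathway, came nearest, with 10.25 (KO) and 8.28 (WT) at 30 min against 8.90 (KO) and 6.96 (WT) at 0 min (coefficient 1.34, SE 0.15, limma adjusted p = 0.054). Of 16 TGF-beta, Id and Notch target genes, 0 rose and 0 fell by limma, with a median of 0.40, and Skil and Id1 had coefficients of 1.36 and 1.11. The 23 S phase and mitosis genes and the 12 ribosomal protein genes had medians of -0.09 and -0.09, with 0 rising and 0 falling by limma in each list. The median of the S phase list became 0.27 without the WT 0 min array.

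Of 15 circadian clock genes, 1 rose and 0 fell, with a median of 0.13. Per1, a clock repressor whose gene also answers to serum and cAMP, read 7.79 (KO) and 7.87 (WT) at 30 min against 5.89 (KO) and 5.85 (WT) at 0 min, a rise of 1.96 (SE 0.20, 3.89-fold, limma adjusted p = 0.0432). The genotypes differed by less than 0.1 at each of these times. Bhlhe40, another clock repressor, had a coefficient of 1.79 (limma adjusted p = 0.39), and Per2 0.35.

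Another 4 genes that rose stood on none of the lists and were named after their values were seen. Noct, a rhythmic phosphatase of nicotinamide dinucleotides, read 8.62 (KO) and 9.25 (WT) at 30 min against 5.89 (KO) and 6.56 (WT) at 0 min, a rise of 2.71 (SE 0.26, 6.54-fold, limma adjusted p = 0.0296). Homer1, a scaffold of synaptic and calcium signalling with a short immediate-early isoform known from neurons, read 6.02 (KO) and 6.4 (WT) at 30 min against 3.06 (KO) and 3.94 (WT) at 0 min, at least 4.87-fold (coefficient 2.71, SE 0.25, limma adjusted p = 0.0267). Of its 6 probe sets only that one moved by 2-fold, and the mean differences of the other 5 ran from -0.03 to 0.60. Slc25a25, a mitochondrial carrier of ATP and phosphate, read 7.47 (KO) and 8.61 (WT) at 30 min against 5.76 (KO) and 6.16 (WT) at 0 min, a rise of 2.08 (SE 0.22, limma adjusted p = 0.0432), while its other 2 probe sets had mean differences of 0.24 and -0.06. Ccnl1, a cyclin of pre-mRNA splicing, read 11.36 (KO) and 12.05 (WT) at 30 min against 9.48 (KO) and 9.81 (WT) at 0 min, a rise of 2.06 (SE 0.16, limma adjusted p = 0.0129). Each of the 4 was higher at 30 min in both genotypes by more than the genotypes differed at either time, Slc25a25 included with 1.14 between genotypes at 30 min. Of the genes that missed the test, Prkab2, a subunit of AMP kinase, and Trib1, a pseudokinase, had coefficients of 3.38 and 3.12 (limma adjusted p = 0.0726 and 0.0937).

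Few genes were lower after 30 min. Tmem186, a mitochondrial membrane protein gene, read 4.91 (KO) and 5.14 (WT) at 30 min against 6.78 (KO) and 6.67 (WT) at 0 min, and its fall had a coefficient of -1.70 (SE 0.16, 3.25-fold lower, limma adjusted p = 0.0296). By 90 min it was back at 6.45 (KO) and 6.36 (WT). Its other 3 probe sets had mean differences of -0.55, -0.17 and 0.01. Txnip, an inhibitor of glucose uptake and thioredoxin that is high in starved cells, had the most negative coefficient of all genes tested. It read 9.22 (KO) and 7.15 (WT) at 30 min against 10.98 (KO) and 9.90 (WT) at 0 min (-2.26, SE 0.57, limma adjusted p = 0.361), and a second probe set gave -1.65 (KO) and -2.80 (WT). At 90 min it read 5.40 (KO) and 6.0 (WT).

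The other 8 genes with the most negative coefficients and 1 sign in both genotypes, clone names skipped, did not pass and are given as values. They were Gadd45a (-1.63), the zinc finger gene Zfp551 (-1.5, limma adjusted p = 0.0763), the arrestin relative Arrdc3 (-1.45), Rasl11b (-1.38), Fam43a (-1.35), the glycogen regulator gene Ppp1r3c (-1.30, limma adjusted p = 0.0866), Zfp113 (-1.05) and Hoxd3os1 (-1.03). Gadd45a and Rasl11b were lower mainly in WT cells, at -0.38 (KO) and -2.87 (WT) for Gadd45a and -0.36 (KO) and -2.39 (WT) for Rasl11b. Hoxd3os1 was lower mainly in KO cells, at -1.88 (KO) and -0.17 (WT). Both of its WT levels and its KO level at 30 min lay below the array medians, so its sign in WT cells cannot be read. Of 23 starvation genes that serum is known to lower, 0 rose and 0 fell by limma at 30 min, with a median of -0.14, 13 lower and 4 higher in both genotypes, and 2 at least 2-fold lower in both (Txnip and Arrdc3). Arrdc3 read 5.76 (KO) and 7.78 (WT) at 30 min against 7.54 (KO) and 8.89 (WT) at 0 min, and 7.16 (KO) and 9.92 (WT) at 90 min.

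Levels at 90 min were also read for the genes named at 30 min. They come from the same fit, and the 30 min and 90 min coefficients share the 0 min arrays, so the values are set side by side only. For 15 of the 21 genes that rose, both 90 min levels were below the 30 min levels of the same genotype. The 21 were chosen by their high 30 min levels, which favours lower levels at 90 min. The share over all genes tested was not taken, so no conclusion is drawn from this count. Fos had coefficients of 6.33 at 30 min and 1.78 at 90 min, and Zfp36 had 5.07 at 30 min and 1.48 at 90 min. In 4 genes, Noct, Homer1, F3 and Errfi1, both 90 min levels were above the 30 min levels. Noct stood at 2.71 at 30 min and 5.15 at 90 min, and Homer1 at 2.71 and 4.52. In Dusp5 and Srf the genotypes differed in direction, with 10.26 (KO) and 11.16 (WT) at 90 min for Dusp5 and 10.38 (KO) and 9.57 (WT) for Srf. Among genes that missed the test at 30 min, Il6, Lif and Fosl1 had larger coefficients at 90 min (4.97, 5.57 and 5.85), and Nfkbiz had a smaller one (0.28). Dusp1 read 9.75 (KO) and 10.34 (WT) at 90 min, above its 0 min level in KO cells and below it in WT cells.

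**Figure D5:**
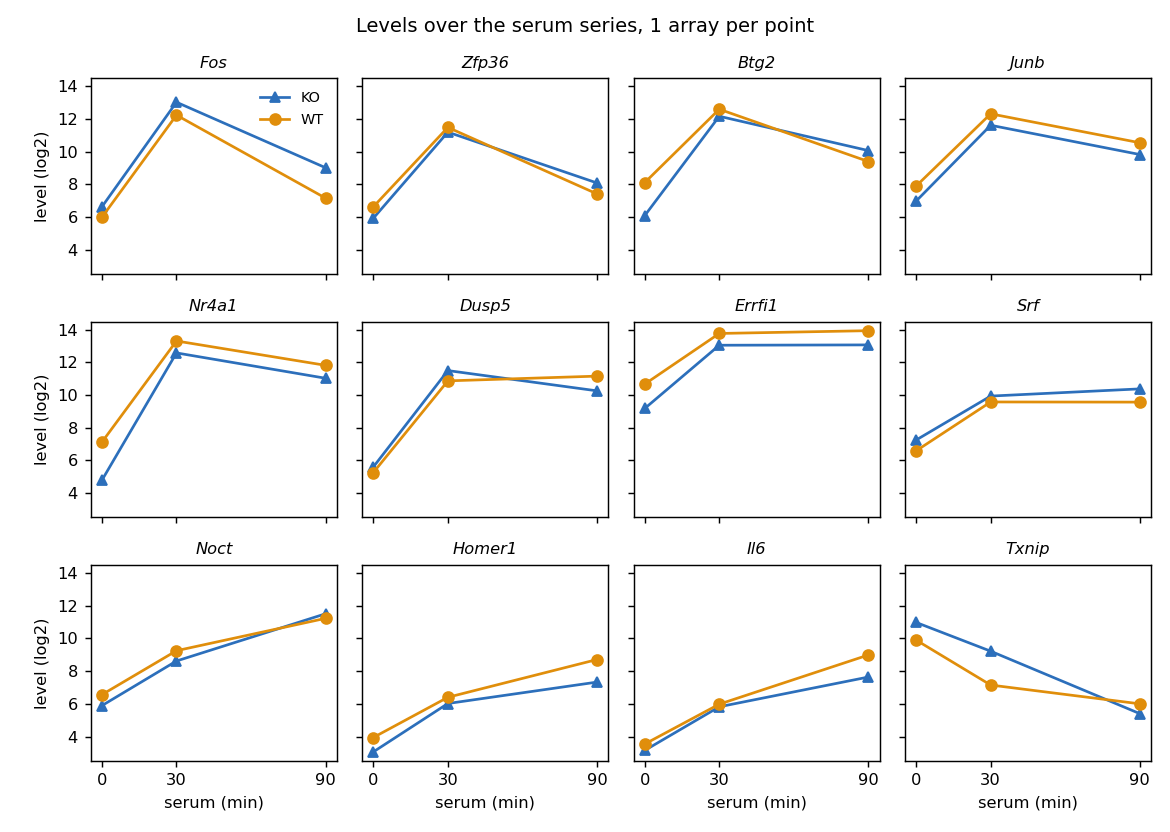
Levels (log2, vertical axis) of 12 named genes at 0, 30 and 90 min of serum (horizontal axis), KO in blue triangles and WT in orange circles, 1 array per point. Fos, Zfp36 and Btg2 peak at 30 min, Errfi1 stays level to 90 min, Noct, Homer1 and Il6 are highest at 90 min, and Txnip is lowest there.

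The distance between the genotypes was also taken at each time. Over the 22 AP-1, Egr, Nab and Nr4a genes tested, the median distance between the genotypes was 0.78 at 30 min and 1.01 at 0 min, with 15 genes closer and 7 farther apart at 30 min. The Nr4a2, Nr4a3 and Egr4 genes were among the 7. The shift of the medians was not tested. The median SE of the serum coefficients of these genes was 0.35, which is not an error of these distances. The 90 genes that were at least 2-fold higher in both genotypes and missed the test had 0.88 at 30 min and 0.96 at 0 min, and all genes tested had 0.41 at 30 min and 0.40 at 0 min. At 0 min, 18 of the 22, 70 of the 90 and 6137 of all 11965 genes read lower in KO than in WT cells. The 90 were chosen on these same values, and the lists were chosen with earlier results of these data known. The choice can shape these counts and distances, so no conclusion is drawn from them. With 1 array a condition, whether the serum difference itself depends on genotype was not tested.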

How the data were processed

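Total RNA of cultured mouse cells was labelled with biotin for Affymetrix arrays, per the labels' protocols, with 1 array per condition. The authors deposited log2 expression values (45101 probe sets). Per the submitters' processing notes the tools were RMA and MAS5, and their roles and versions are not given in the sources used here. Groups came from the sample titles. Probe sets with 1 gene symbol (34945) gave 18193 genes through the platform annotation, with 34741 symbols updated through the RefSeq table of GRCm38.p6. A gene was represented by its brightest probe set (mean of the 6 MEF arrays), and genes whose highest value passed 3.90, the median of all values, were tested (11965).

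The deposited log2 values were fitted with limma 3.58.1 in R 4.3.3 (genotype plus serum time, 2 residual and 4.06 prior degrees of freedom), with two-sided p-values and Benjamini-Hochberg adjustment at 0.05. The residual holds noise and any interaction of genotype and time. The fit was tested on simulated data. "At least" folds raise levels below the array median to it. Each genotype formed a pair of arrays. Named were the 15 largest positive coefficients among called genes, the 10 largest negative ones (1 called, the others as values), each with 1 sign in both genotypes and clone names skipped, Med23, Srf and members of 25 lists (358 entries, 302 tested, 19 with no named probe set). The members and lists were chosen with earlier results of these data known. Arrays give no read depth, so their number limits the precision. The 10T1/2 arrays were not used here.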

Additional observations from a re-analysis of the deposited data

Results flagged for a closer look

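The poly-A spike-in probe sets, which measure no mouse gene, were higher at 30 min than at 0 min, by a median of 0.49 in KO and 0.29 in WT cells, with 20 of 24 higher in both. The 18 hybridisation controls were higher by a median of 0.13 in KO and 0.21 in WT cells, with 16 of 18 higher in both.

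Of the 301 list members tested, 63 had opposite signs in the genotypes (20.9%), against 33.5% of all genes tested. Values are given for 4 of them, with 1 array each time, and these differences were not tested. Lmod1, an actin-nucleating muscle gene, was at 1.83 in KO and -0.11 in WT cells. Spry1, a receptor kinase inhibitor, was at 1.36 in KO and -0.13 in WT cells. Socs3, a cytokine feedback gene, was at -0.36 in KO and 2.07 in WT cells. Vcl was at 0.37 in KO and -0.05 in WT cells.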

How the results depend on the processing

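By limma, 21 genes rose and 1 fell. With only the 4 arrays of 0 and 30 min the counts were 10 and 0, with the mean of all probe sets 13 and 0, and with an intensity trend 54 and 2. In the fit with no replicate block (no genotype term) they were 0 and 0, with 200 genes at an unadjusted p under 0.05. Quantile normalization, shifted medians, no filter and a filter on the mean gave 17 to 28 higher and 1 lower. Leaving out 1 array gave 0 to 20 higher and 0 to 0 lower: 0 higher without the WT 30 min or the KO 30 min array, 8 without KO 0 min, 10 without either 90 min array and 20 without WT 0 min. Of the 22 genes, 10 were among those called without WT 0 min. Leaving out a 90 min array repeats the fit of the 4 arrays of 0 and 30 min, so it is not a further check. At 1.5-fold the counts were 540 higher and 183 lower in KO cells and 686 higher and 293 lower in WT cells. With the mean of all probe sets, the coefficient was 0.67 for Homer1, 0.97 for Nr4a2, 0.75 for Slc25a25, 0.93 for Nr4a3, 1.65 for Csrnp1, 3.51 for Egr3 and 2.35 for Acta2. Small coefficients turned sign. Actb was -0.903 with the mean of probe sets and Mrtfa -0.019 after quantile normalization. Over the fits that left out 1 array, Mrtfa ranged from -0.090 to 0.24, Socs3 from -0.255 to 1.965, Vcl from -0.097 to 0.417, Cnn1 from -0.082 to 1.982, Elk1 from -0.085 to 0.405, Lmod1 from -0.050 to 1.77 and Spry1 from -0.028 to 1.258. So did 1 probe set each of Homer1 (-0.03), Nr4a2 (-0.17), Slc25a25 (-0.06) and Tmem186 (0.01). The cause was not tested, other than fewer arrays. Shifted medians put the median of all genes at 0.07 and quantile normalization at -0.04, against 0.02 as deposited. Motif counts in the 250 bases before the start alone were 4 (CArG), 11 (cAMP response element), 6 (ETS) and 6 (TATA).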

Other observations

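Of the markers of other cell types, 0 passed by limma. For macrophages 4 of 7 markers, for skeletal muscle 4 of 7 and for neural cells 1 of 6 stayed under the array median throughout the 6 arrays. The summed log2 level of the neural markers was 28.52 to 33.61 at 30 min and 29.16 to 35.12 at 0 min, and that of the macrophage markers 25.91 to 30.90 at 30 min and 26.40 to 31.04 at 0 min. Among stress genes off the lists, named after their values were seen, the cell cycle inhibitor Cdkn1a had a coefficient of 1.39 (limma adjusted p = 0.0866), the interferon factor Irf1 1.49 and Ifrd1 2.75.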
